A study of Homo sapiens with 18 samples.

Results

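A set of genes of the melanosome and of pigment synthesis, PMEL, TYR, TYRP1, MLANA, GPR143, OCA2, GPNMB, BACE2, CAPN3 and ST3GAL6, were followed over 6 groups of melanoma cells. They were chosen from measured values of these same arrays, and every probe set annotated to them was used. They make up 10 of 11232 genes with a probe set of their own and 21 of 20264 such probe sets, and 6 of the 10 have more than 1 probe set. All 21 probe sets passed the filter on low values (at least 3 arrays of 18 with log2 4 or above). For MLANA only the C32 arrays, for GPR143 only the A375M2 GFP and PMEL arrays, and for OCA2 only the A375M2 arrays lay at log2 4 or more throughout a group.

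RNA from 18 samples was hybridised to Affymetrix arrays. They come from 2 human melanoma lines, A375M2, a metastatic variant of A375, and C32, both transduced with lentiviral vectors. A375M2 cells carried a GFP vector (A375M2 GFP), full-length PMEL (A375M2 PMEL), short hairpin RNAs against FHL2 (A375M2 shFHL2) or against NFYA (A375M2 shNFYA). C32 cells carried GFP (C32 GFP) or the FHL2 hairpins (C32 shFHL2), and each group has 3 arrays. For A375M2 the labels describe GFP, PMEL and shFHL2 cells that were sorted by fluorescence and kept 15 days in selective medium, in 3 separate experiments. The PMEL vector expresses a His-tagged protein from a CMV promoter together with eGFP, and the FHL2 hairpins are a pool of 3 constructs. How the NFYA and C32 arms were cultured, and which GFP vector the control cells carried, is unstated in the labels. The labels name no non-targeting hairpin group, so each hairpin group was set against GFP cells. For C32 and for the NFYA arm nothing says that cultures were separate. P-values of comparisons with these groups therefore measure only the spread between arrays.

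Melanosomes are lysosome-related organelles in which pigment cells make and store melanin. PMEL is cut by proteases into fragments that assemble into the fibrils of the immature organelle, and melanin is laid down on these fibrils once the enzymes tyrosinase (TYR) and tyrosinase-related protein 1 (TYRP1) have been delivered. Many of these genes are known targets of the lineage transcription factor MITF, which binds E-box sequences. FHL2 is a LIM-domain scaffold protein, and NFYA is a subunit of NF-Y, which binds CCAAT sequences.

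RefSeq windows of the 250 bases upstream of a transcription start (GRCh38.p14) were present for 8 of the 10 genes, as 13 windows, and PMEL and BACE2 had none. Both strands were searched for the E-box CATGTG, of the kind that MITF binds, which was present in 9.42% of 35116 windows of all genes. Its extended form TCATGTG, which overlaps it by definition, was present in 2.52% of all windows. The related E-box CACGTG was present in 6.34%, and either of the E-boxes in 15.2%. The letters CCAAT were present in 32% of all windows. An E-box was found in 1 window each of 6 members, and CCAAT in 1 window each of 4. The 5 windows below are those with an E-box among the members that have a single window. They are shown because MITF is the regulator most of these genes are known to share. A further E-box, in 1 of 4 windows of ST3GAL6, is not shown, nor are the CCAAT windows of MLANA, CAPN3 and ST3GAL6. They are written 5′ to 3′ on the strand of the gene, with the matched letters in capitals. They lie at chr11:89177625-89177874 (plus strand, TYR), chr9:12693135-12693384 (plus strand, TYRP1), chrX:9765848-9766097 (minus strand, GPR143), chr7:23246525-23246774 (plus strand, GPNMB) and chr15:28099316-28099565 (minus strand, OCA2).
TYR: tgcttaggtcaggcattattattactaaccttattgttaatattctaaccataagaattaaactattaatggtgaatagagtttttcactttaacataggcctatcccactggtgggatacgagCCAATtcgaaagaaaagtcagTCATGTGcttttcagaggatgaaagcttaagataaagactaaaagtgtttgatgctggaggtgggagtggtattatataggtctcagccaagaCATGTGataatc
TYRP1: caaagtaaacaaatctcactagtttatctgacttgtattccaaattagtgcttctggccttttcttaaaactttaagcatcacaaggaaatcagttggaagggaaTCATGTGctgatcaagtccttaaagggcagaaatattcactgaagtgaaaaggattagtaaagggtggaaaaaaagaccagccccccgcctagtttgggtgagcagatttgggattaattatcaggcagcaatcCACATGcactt
GPR143: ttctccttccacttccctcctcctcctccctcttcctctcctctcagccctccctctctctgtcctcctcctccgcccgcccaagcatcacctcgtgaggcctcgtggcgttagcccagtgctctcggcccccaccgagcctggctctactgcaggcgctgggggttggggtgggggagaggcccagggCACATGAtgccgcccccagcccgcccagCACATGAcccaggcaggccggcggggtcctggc
GPNMB: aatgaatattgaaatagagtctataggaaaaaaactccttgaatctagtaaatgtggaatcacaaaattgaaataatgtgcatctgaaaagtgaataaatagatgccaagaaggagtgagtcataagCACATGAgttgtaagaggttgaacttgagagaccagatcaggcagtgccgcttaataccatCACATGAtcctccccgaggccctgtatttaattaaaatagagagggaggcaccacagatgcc
OCA2: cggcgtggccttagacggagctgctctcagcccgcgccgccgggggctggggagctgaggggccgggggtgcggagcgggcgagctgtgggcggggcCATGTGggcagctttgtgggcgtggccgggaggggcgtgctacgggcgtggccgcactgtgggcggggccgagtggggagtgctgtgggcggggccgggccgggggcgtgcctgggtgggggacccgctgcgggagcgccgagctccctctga
The TYR window has 2 CATGTG, of which 1 is TCATGTG, and 1 CCAAT. The TYRP1 window has 2 CATGTG, of which 1 is TCATGTG. The GPR143 and GPNMB windows each have 2 TCATGTG on the strand opposite to the gene, where they read CACATGA, and the OCA2 window has 1 CATGTG. A match is a description of these letters and not a binding site.

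Before the members are described, the arrays themselves set limits. In C32 GFP, array 3 was nearly the mean of arrays 1 and 2 (SD of the deviations 0.00719 over 16775 probe sets, against 0.107 to 0.171 for the other arrays) and was left out, so C32 GFP values are means of 2 arrays. Replicate 3 of A375M2 GFP and replicate 3 of A375M2 PMEL deviated from the other arrays of their groups by mirrored amounts (r = -0.998 across probe sets, which are not independent replicates). The sum of their deviations had an SD of 0.00644, against 0.114 for each. These 2 arrays are not independent, yet both stayed in the fit as full replicates. SEs, calls and p-values that use A375M2 GFP or PMEL arrays may overstate the precision. Differences with PMEL gain are therefore given without both arrays too where their direction turned or their size moved by over 1.5 times, and for PMEL, TYRP1 and GPR143. Exact low values that arrays have in common also divide them into sets. Arrays 1 and 2 of A375M2 GFP and PMEL had 514 to 941 such values in common with each other and 0 with array 3 of the same groups. The 2 arrays numbered 3 had 515 in common with each other and 216 each with the C32 GFP array that was left out. The A375M2 hairpin arrays had 302 to 750 in common with each other, 38 to 50 with C32 arrays and 0 with any A375M2 GFP or PMEL array. The A375M2 GFP arrays therefore come from 2 sets and the hairpin arrays from a further one, and in these comparisons group and array set cannot be told apart. The comparison of shFHL2 with shNFYA and that of the C32 groups each lie within one set. The 18S control probe sets had mean log2 values of 12.52 in A375M2 GFP, 11.08 in PMEL, 14.18 in shFHL2, 14.19 in shNFYA, 13.28 in C32 GFP and 13.94 in C32 shFHL2. The poly-A spike controls averaged 9.37 in C32 GFP, 5.96 in C32 shFHL2 and 6.57 to 7.15 in the A375M2 groups. The actin 3′ end minus 5′ end difference, a measure of RNA quality, was 0.61 log2 in A375M2 GFP, 0.74 in PMEL, 1.07 in shFHL2 and 1.19 in shNFYA, and 1.08 in C32 GFP and 0.87 in C32 shFHL2. The part of these controls in the results was not tested.

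The targeted genes followed the labels. FHL2 was at log2 11.21 ± 0.05 with GFP and 7.17 ± 0.14 with its hairpins in A375M2 (SD, n = 3 each). In C32 the values were 11.08 ± 0.06 (SD, n = 2) and 5.83 ± 0.46 (SD, n = 3). NFYA was at 9.59 ± 0.17 in A375M2 GFP, 7.52 ± 0.18 in shNFYA and 8.86 ± 0.09 in shFHL2 (SD, n = 3 each), so the FHL2 hairpin group also had a lower NFYA signal. Of 9 melanocytic markers, 8 were measured, and MITF (14.24 in A375M2 GFP, 14.96 in C32 GFP) and SOX10 (12.76 and 12.88), a lineage regulator, were well above log2 4 in both control groups. MLANA was under log2 4 in every A375M2 array. Of the markers of other cell types, 2 of 7 keratinocyte, 4 of 7 fibroblast and 1 of 4 macrophage genes were measured. Among the fibroblast genes COL1A2 and DCN were under log2 4 in A375M2 GFP, COL1A1 was at 5.77 and LUM at 11.11. LUM was lower in PMEL (9.08), shFHL2 (7.37) and shNFYA (7.50), and COL1A2 was at 11.91 in C32 GFP and 12.46 in C32 shFHL2. The log2 of the summed fibroblast signal ranged from 11.07 to 11.31 in A375M2 GFP, from 9.20 to 9.27 in PMEL, from 8.22 to 8.33 in shFHL2 and from 8.21 to 8.39 in shNFYA, and in C32 from 11.85 to 12.04 with GFP and from 12.48 to 12.51 with the FHL2 hairpins. The summed keratinocyte signal holds only KRT10 and KRT14. Its log2 ranged from 12.06 to 12.31 in A375M2 GFP and from 12.23 to 12.29 in PMEL. It ranged from 13.50 to 13.78 in shFHL2 and from 13.30 to 13.35 in shNFYA. In C32 it ranged from 12.37 to 12.50 with GFP and from 12.77 to 12.91 with the FHL2 hairpins. Nearly all of it was KRT10 (means 12.17, 13.63 and 13.32 in A375M2 GFP, shFHL2 and shNFYA). KRT14 was under log2 4 in all groups but shNFYA (mean 5.08). The part of these markers in the results was not tested. PTPRC, a leukocyte marker, was under log2 4 in A375M2 but at log2 8.61 to 8.65 in C32 GFP and 7.67 to 7.96 in C32 shFHL2. In such bulk RNA, fewer cells of a type and less RNA per cell cannot be told apart.

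**Figure D1:**
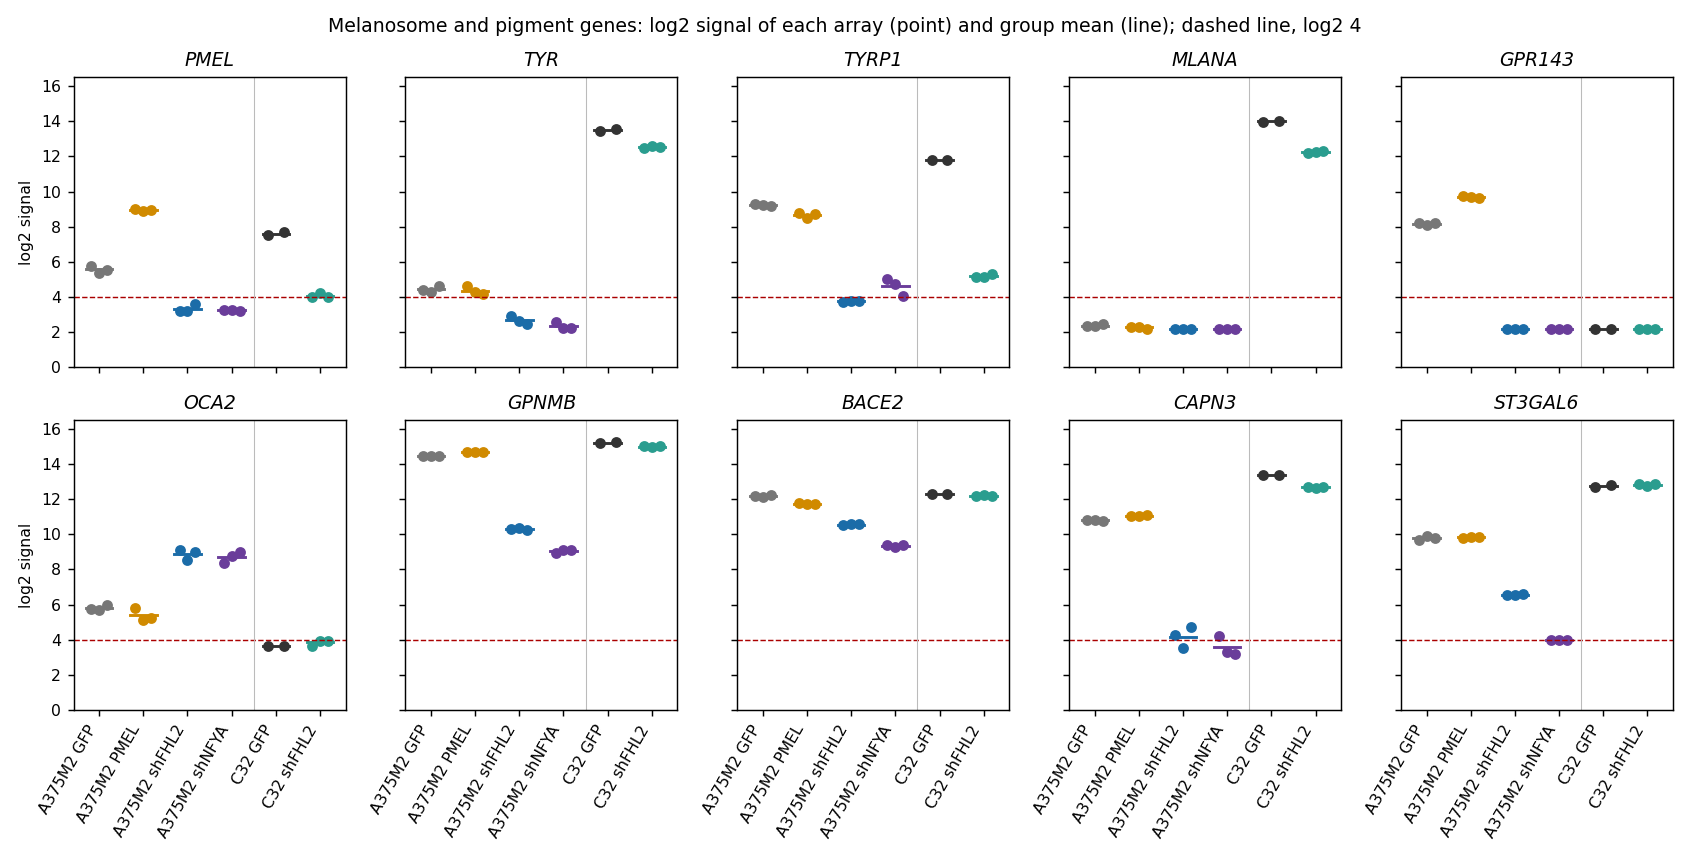
Log2 signal of the 10 genes in each array (points) and the group mean (line), by group, with C32 GFP replicate 3 left out; the dashed line is log2 4. GPR143 lies above log2 4 in A375M2 GFP and PMEL only, MLANA in C32 only, and OCA2 is highest in the A375M2 hairpin groups.

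PMEL, the fibril protein, was measured by 1 probe set (209848_s_at). Its log2 signal was 5.78, 5.37 and 5.55 in A375M2 GFP and 9.0, 8.88 and 8.96 in A375M2 PMEL, the cells given the gene. It was 3.23, 3.19 and 3.62 in A375M2 shFHL2 and 3.28, 3.28 and 3.19 in shNFYA. In C32 it was 7.53 and 7.70 with GFP and 4.03, 4.22 and 3.98 with the FHL2 hairpins. The order of groups was A375M2 PMEL, C32 GFP, A375M2 GFP, C32 shFHL2 and then both A375M2 hairpin groups, whose arrays overlapped; no other neighbours in this order overlapped. The gain in A375M2 PMEL was 3.38 log2 (SE 0.126), or 10.4-fold, and 3.36 without both replicate 3 arrays. The A375M2 hairpin groups differed from GFP by -2.22 log2 (shFHL2) and -2.32 log2 (shNFYA), which became -1.57 in both when values under log2 4 were set to 4. In C32 the FHL2 hairpins gave a difference of -3.54 log2 (SE 0.14), 11.6-fold lower. No source used here says whether the probe set reads the transgene, the endogenous transcript or both.

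MLANA, a melanosome membrane protein that works with PMEL in fibril formation, was above log2 4 in C32 only. Its probe set 206427_s_at gave 13.98 and 14.02 in C32 GFP and 12.18, 12.24 and 12.31 in C32 shFHL2, with no overlap and a difference of -1.75 log2 (SE 0.0898), 3.37-fold. The second probe set, 206426_at, gave 13.02 and 13.10 against 10.77, 10.92 and 10.77. In A375M2 the highest value was 2.45 for 206427_s_at and 2.24 for 206426_at, and with 206427_s_at all 6 hairpin arrays were at exactly 2.18. The A375M2 differences of 206427_s_at from GFP, -0.20 log2 in both hairpin groups, lie wholly under log2 4 and became 0 with values under 4 set to 4. With PMEL gain the difference was -0.11 log2, and -0.04 without both replicate 3 arrays. It too lies wholly under log2 4 and became 0 with that floor. The lines differed by 11.62 log2, or 10.00 log2 with that floor.

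GPNMB, a glycoprotein related in sequence to PMEL, was far above log2 4 in all arrays. Its probe set 201141_at gave 14.47, 14.43 and 14.44 in A375M2 GFP, 14.65, 14.70 and 14.69 in PMEL, 10.28, 10.34 and 10.24 in shFHL2 and 8.94, 9.10 and 9.10 in shNFYA. In C32 it gave 15.18 and 15.25 with GFP and 15.02, 14.93 and 15.01 with the FHL2 hairpins. The 6 groups did not overlap. The A375M2 hairpin groups were 17.9-fold (shFHL2, -4.16 log2, SE 0.041) and 42.3-fold (shNFYA, -5.40 log2) lower than GFP, while C32 shFHL2 differed by -0.23 log2 (SE 0.0458). The other probe set, 1554018_at, gave smaller differences in the same direction, -2.94 and -3.77 log2 in A375M2 and -0.12 in C32. For PMEL gain the probe sets disagreed, with 0.23 log2 for 201141_at and -0.03 for 1554018_at.

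TYR, the rate-limiting enzyme of melanin synthesis, was abundant only in C32. Its probe set 206630_at gave 13.42 and 13.55 in C32 GFP and 12.50, 12.60 and 12.51 in C32 shFHL2, a difference of -0.95 log2 (SE 0.151) without overlap, and the other 2 probe sets gave -0.88 and -0.85. In A375M2 it gave 4.42, 4.29 and 4.60 with GFP, 4.62, 4.28 and 4.19 with PMEL, 2.93, 2.61 and 2.48 in shFHL2 and 2.58, 2.27 and 2.27 in shNFYA. The GFP and PMEL arrays overlapped, with a difference of -0.08 log2 that turned to 0.10 without both replicate 3 arrays. Both hairpin groups overlapped too and lay wholly under log2 4. The hairpin differences of -1.76 and -2.07 log2 therefore shrank to -0.44 each with values under 4 set to 4. The other 2 probe sets were under log2 4 in every A375M2 array, and their A375M2 shFHL2 differences were -0.13 and 0.11 log2.

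TYRP1, a second melanosomal enzyme of the tyrosinase family that also stabilises tyrosinase, was read by 1 probe set (205694_at) and had the largest C32 difference among the 10 genes. It gave 9.28, 9.25 and 9.18 in A375M2 GFP and 8.76, 8.51 and 8.72 in PMEL. It gave 3.72, 3.78 and 3.78 in shFHL2 and 5.00, 4.75 and 4.06 in shNFYA. In C32 it gave 11.81 and 11.82 with GFP and 5.16, 5.13 and 5.29 with the FHL2 hairpins. No pair of groups next to each other in level overlapped. The FHL2 hairpin difference was -5.48 log2 (SE 0.158) in A375M2, or -5.24 with values under 4 set to 4, and -6.62 log2 (SE 0.177) in C32, 98.3-fold lower. With PMEL gain TYRP1 differed by -0.58 log2 (SE 0.158), and by -0.63 without both replicate 3 arrays.

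GPR143, a G protein-coupled receptor of the melanosome membrane that acts in melanosome size and number, was above log2 4 only in A375M2 cells without hairpins. Its probe set 206696_at gave 8.24, 8.09 and 8.22 in A375M2 GFP and 9.72, 9.70 and 9.66 in A375M2 PMEL. It stood at 2.18 in all 6 A375M2 hairpin arrays and all C32 arrays, its lowest value. The gain with PMEL was 1.51 log2 (SE 0.082), 2.85-fold, and 1.55 without both replicate 3 arrays. The hairpin differences of -6.0 log2 became -4.18 with values under 4 set to 4, and C32 allows no statement on the direction, since both of its groups were at the same low value.

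OCA2, a melanosome membrane protein that acts on anion transport and pH of the organelle, had the opposite sign. Its probe set 206498_at gave 5.76, 5.71 and 5.96 in A375M2 GFP and 5.79, 5.11 and 5.23 in PMEL, which overlapped (difference -0.43 log2, SE 0.185, and -0.29 without both replicate 3 arrays). It gave 9.08, 8.52 and 8.97 in shFHL2 and 8.35, 8.77 and 9.01 in shNFYA, which overlapped each other and lay above all other arrays. In C32 it was under log2 4 in all arrays, at 3.66 and 3.66 with GFP and 3.67, 3.94 and 3.93 with the FHL2 hairpins. The A375M2 hairpin groups were 8.25-fold (shFHL2, 3.04 log2, SE 0.185) and 7.45-fold (shNFYA, 2.90 log2) above GFP. It was the only one of the 10 genes whose main probe set was higher in the hairpin groups.

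BACE2, a protease that cuts PMEL, gave 12.19, 12.14 and 12.21 in A375M2 GFP and 11.75, 11.73 and 11.70 in PMEL with its probe set 222446_s_at. It gave 10.52, 10.56 and 10.56 in shFHL2 and 9.36, 9.28 and 9.36 in shNFYA, with no overlap among the 4 A375M2 groups. In C32 it gave 12.28 and 12.31 with GFP and 12.19, 12.20 and 12.16 with the FHL2 hairpins. The differences from GFP were -0.45 log2 (SE 0.0324) with PMEL, -1.63 in A375M2 shFHL2, -2.84 in shNFYA and -0.11 (SE 0.0363) in C32 shFHL2. Over its 3 probe sets the A375M2 shFHL2 difference ranged from -2.37 to -0.70 log2 and the C32 difference from -0.46 to -0.01.

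CAPN3, a calcium-dependent protease of the calpain family, gave 10.83, 10.81 and 10.77 in A375M2 GFP and 11.05, 11.03 and 11.10 in PMEL with its probe set 210944_s_at. It was close to log2 4 in both hairpin groups, with 4.29, 3.53 and 4.72 in shFHL2 and 4.20, 3.32 and 3.20 in shNFYA, which overlapped. In C32 it gave 13.37 and 13.35 with GFP and 12.68, 12.63 and 12.67 with the FHL2 hairpins. The A375M2 differences of -6.62 (shFHL2) and -7.23 log2 (shNFYA, SE 0.234 each) were -6.47 and -6.74 with values under 4 set to 4, and the C32 difference was -0.70 log2 (SE 0.261). Its other 2 probe sets, under log2 4 in all hairpin arrays, gave -6.85 and -7.04 in A375M2 shFHL2 and -0.37 and -0.41 in C32.

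ST3GAL6, a sialyltransferase that caps glycans with sialic acid, gave 9.69, 9.88 and 9.77 in A375M2 GFP and 9.81, 9.86 and 9.84 in PMEL with its probe set 213355_at, which overlapped. It gave 6.57, 6.52 and 6.61 in shFHL2 and 3.97 in all 3 shNFYA arrays. In C32 it gave 12.70 and 12.77 with GFP and 12.87, 12.74 and 12.87 with the FHL2 hairpins, which overlapped. The A375M2 differences were -3.21 log2 in shFHL2 and -5.81 in shNFYA (SE 0.0546 each), the latter -5.78 with values under 4 set to 4. Of its 4 probe sets, 213873_at had the opposite sign, with 1.12 log2 in shFHL2 and 1.84 in shNFYA, from 4.19, 4.19 and 4.38 in GFP to 6.14, 6.51 and 5.63 in shNFYA.

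**Figure D2:**
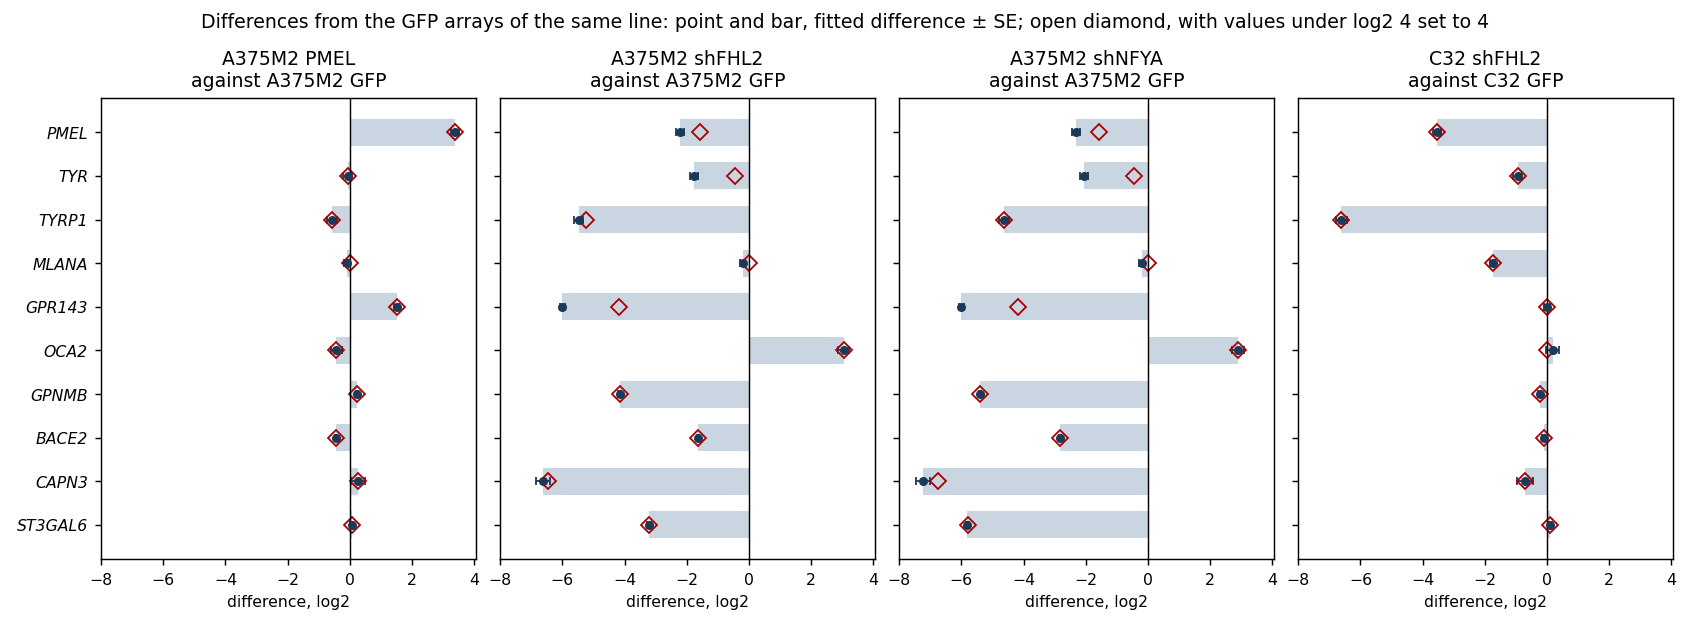
Fitted log2 difference of each gene from the GFP arrays of its line (point and bar, with SE), in the 4 comparisons; open diamonds show the difference with values under log2 4 set to 4. PMEL and GPR143 are the long bars with PMEL gain, OCA2 is the only long bar to the right in the A375M2 hairpin groups, and PMEL and TYRP1 are the longest bars in C32.

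The group means were compared with limma, and a gene was called at a Benjamini-Hochberg adjusted p under 0.05. With PMEL gain 3 of the 10 genes were called higher (PMEL, GPR143 and GPNMB) and 2 lower (TYRP1 and BACE2), where 22.1% of all 10940 genes tested were called higher and 17.8% lower. In A375M2 shFHL2 1 was called higher (OCA2) and 9 lower, where 41.1% of all genes were called higher and 44.2% lower. In A375M2 shNFYA the counts were again 1 higher (OCA2) and 9 lower, with 43.5% and 43.3% of all genes. In C32 shFHL2 0 were called higher and 7 lower, with 32.2% and 30.3% of all genes, and GPR143, OCA2 and ST3GAL6 were not called. These contrasts were in view when the genes were chosen, so nothing is read from the counts. The A375M2 comparisons share their GFP arrays. The median difference of the 10 genes was -0.01 log2 with PMEL gain, -2.72 in A375M2 shFHL2, -3.74 in shNFYA and -0.46 in C32 shFHL2, beside medians over all genes of 0.02, -0.04, 0.00 and 0.00. MLANA counts among the 9 lower genes with values under log2 4 only. Its calls were lost without A375M2 GFP replicate 3 (-0.17 log2 in both hairpin groups). With PMEL gain OCA2 (-0.43 log2) was not called, but was called lower without A375M2 PMEL replicate 1 (-0.64 log2). CAPN3 (0.26 log2) was not called by 210944_s_at, while its other 2 probe sets were called higher (0.31 and 0.26 log2). In C32 the BACE2 call was lost without GFP replicate 2 (-0.09 log2), and the CAPN3 call without GFP replicate 1 or 2 or shFHL2 replicate 2 or 3 (-0.71 to -0.69 log2).

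Side by side, the comparisons differed gene by gene. PMEL and GPR143 were higher with PMEL gain and lower in both A375M2 hairpin groups. TYRP1 and BACE2 were lower in all 3. TYR, CAPN3 and ST3GAL6 differed by -0.08 (0.10 without both replicate 3 arrays), 0.26 and 0.06 log2 with PMEL gain, and by -1.76, -6.62 and -3.21 with the FHL2 hairpins.

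The hairpin groups of A375M2 were compared with each other directly, which uses no GFP array and lies within one array set. The hairpin values were also in view when the genes were chosen, so this too is a description, without p-values. In this comparison 4 of the 10 genes were called higher in shFHL2 than in shNFYA and 1 lower, where 31.8% of all genes were called higher and 38.3% lower. The median difference was 0.23 log2 for the 10 genes and -0.03 for all genes. ST3GAL6 was 2.60 log2 (SE 0.0546) higher in shFHL2, or 2.57 with values under 4 set to 4, since all 3 shNFYA arrays stood at the same low value. GPNMB was 1.24 log2 (SE 0.041) higher, 2.36-fold, and BACE2 1.21 log2 (SE 0.0324) higher, 2.32-fold. These 3 genes were higher in all 3 shFHL2 arrays than in any shNFYA array. Both GPNMB probe sets and all 3 BACE2 probe sets had this direction, and the smallest of these differences was 0.53 log2, for 217867_x_at of BACE2. For ST3GAL6 the probe set 210942_s_at had this direction (2.14 log2, with shNFYA under log2 4) and 213873_at the opposite one (-0.72 log2), while 213335_s_at (0.32 log2) was under log2 4 in all 6 arrays.

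TYRP1 had the opposite order, with -0.84 log2 in shFHL2 against shNFYA (SE 0.158). All 3 shFHL2 arrays were under log2 4 and all 3 shNFYA arrays above it, and with values under 4 set to 4 the difference was -0.60. CAPN3 was called at 0.61 log2 (SE 0.234), but its arrays overlapped and the difference was 0.27 with values under 4 set to 4. Its call was lost without shFHL2 replicate 1 (0.55 log2), shFHL2 replicate 3 (0.34), shNFYA replicate 2 (0.48) or shNFYA replicate 3 (0.42). Its other 2 probe sets, under log2 4 in all 6 arrays, gave -0.12 and -0.19 log2.

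The other 5 genes were not called between the hairpin groups, which does not show that they were equal. The difference was 0.10 log2 for PMEL (95% interval -0.16 to 0.37) and 0.15 log2 for OCA2 (95% interval -0.24 to 0.54). For TYR it was 0.30 log2 (95% interval 0.02 to 0.59), with every value under log2 4. TYR was called without A375M2 shFHL2 replicate 3, shNFYA replicate 1 or PMEL replicate 1 (0.40, 0.41 and 0.30 log2). MLANA and GPR143 stood at the same low value in both groups. Of the 10 genes, PMEL, TYR, MLANA and GPR143 were under log2 4 in both hairpin groups and could not be ranked there.

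**Figure D3:**
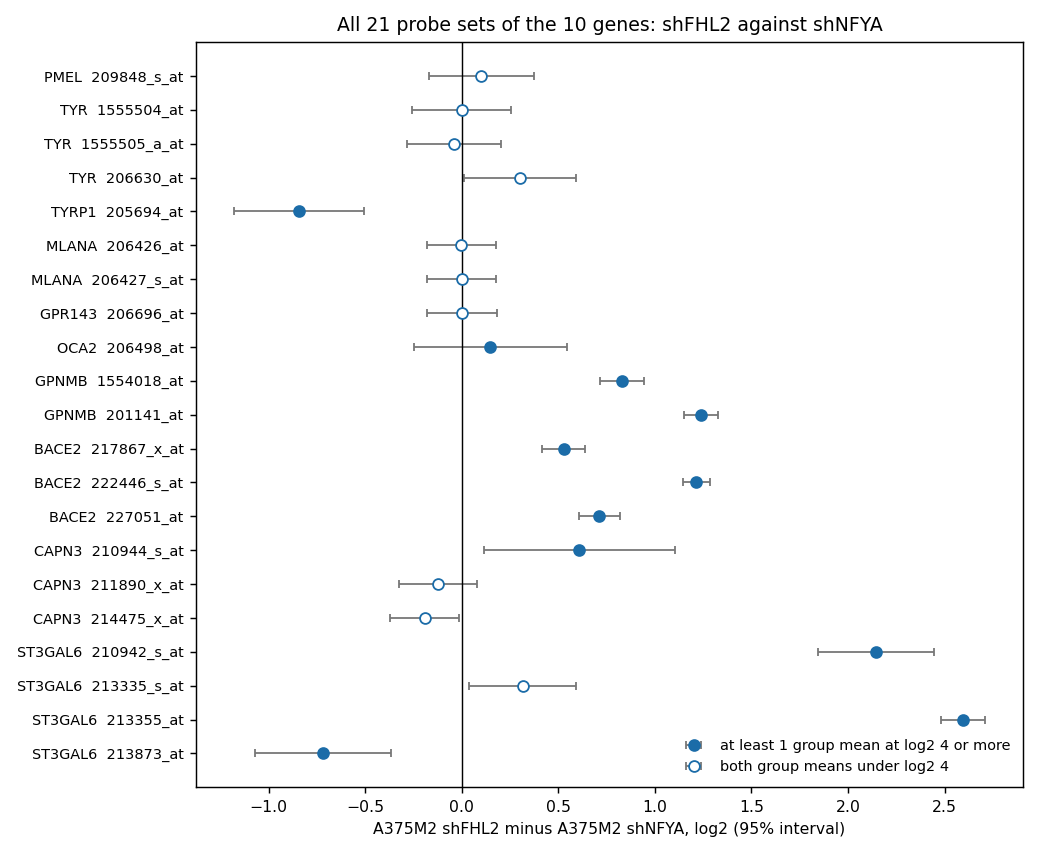
Log2 difference of A375M2 shFHL2 from A375M2 shNFYA for each of the 21 probe sets, with 95% intervals; open points have both group means under log2 4. The GPNMB and BACE2 probe sets and 3 of 4 ST3GAL6 probe sets lie to the right of 0, 213335_s_at with both means under log2 4, and TYRP1 and 213873_at of ST3GAL6 to the left.

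The FHL2 hairpins had unlike sizes of difference in the 2 lines, which is a description here. TYRP1 and PMEL had large negative differences in both lines. GPNMB, BACE2, CAPN3 and ST3GAL6 had differences of -4.16, -1.63, -6.62 and -3.21 log2 in A375M2 and of -0.23, -0.11, -0.70 and 0.09 in C32. The C32 minus A375M2 difference was 3.93 log2 for GPNMB (SE 0.0615), 1.52 for BACE2 (SE 0.0486), 5.92 for CAPN3 (SE 0.351) and 3.30 for ST3GAL6 (SE 0.0819). It was -1.32 log2 for PMEL (SE 0.188) and -1.14 for TYRP1 (SE 0.238), where the A375M2 hairpin values lie under log2 4. MLANA and GPR143 could be read in 1 line each, C32 and A375M2, and OCA2 was above log2 4 in A375M2 only. For TYR the C32 minus A375M2 difference was 0.81 log2 as measured and -0.51 with values under 4 set to 4. The C32 arrays lie in one set, while the A375M2 comparison crosses array sets.

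**Figure D4:**
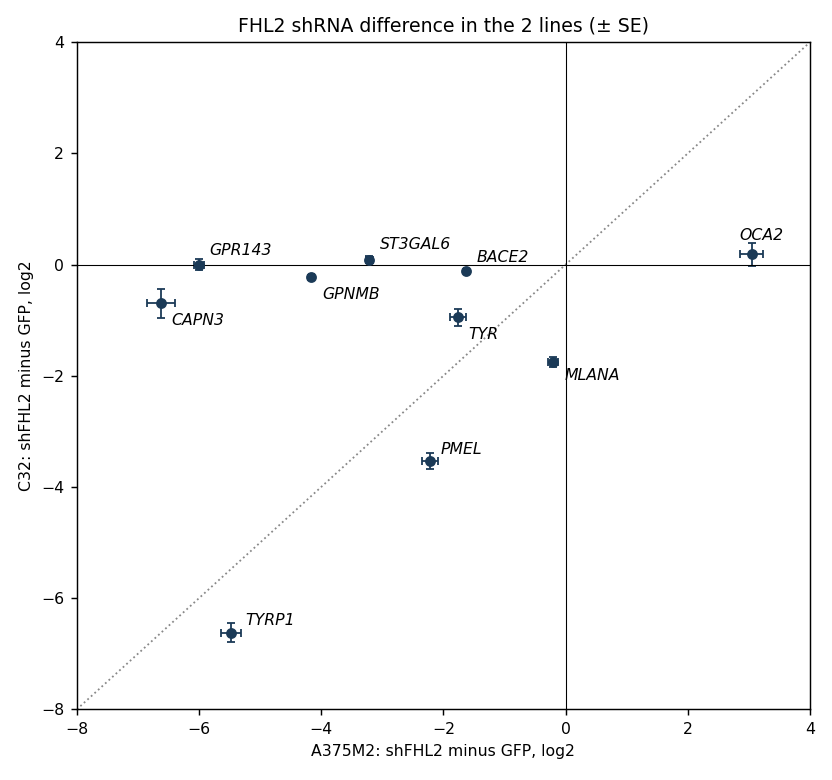
Log2 difference of FHL2 hairpin cells from GFP cells in C32 (vertical axis) and A375M2 (horizontal axis) for the 10 genes, with SE; the dotted line marks equal differences. TYRP1 and PMEL lie far below 0 on both axes, while GPNMB, BACE2, CAPN3, ST3GAL6 and GPR143 lie between -0.70 and 0.09 log2 in C32.

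Across the 17 arrays the 10 genes fell into an unequal pattern. OCA2 correlated negatively with each of the other genes, from -0.22 with GPR143 to -0.98 with CAPN3, while GPNMB correlated at 0.98 with CAPN3, 0.97 with BACE2 and 0.95 with ST3GAL6. PMEL correlated at 0.82 with TYRP1 and at 0.09 with MLANA. These are Pearson coefficients over arrays that share lines and groups and are a description. Among 5081 genes that varied by at least 2 log2, the genes most like each member were STS (0.998) and VXN (0.998) for TYR, LINC02946 (0.9998) and PTPRC (0.9996) for MLANA, and RASGRP1 (0.999) and GREB1L (0.997) for GPR143. They were UBAP1L (0.957) and BMF (0.926) for PMEL, PDCD4-AS1 (0.963) and TLR1 (0.957) for TYRP1, and CAPS (0.992) and MCL1 (0.991) for OCA2. They were SYNM (0.997) and MITF (0.996) for GPNMB, IER5L (0.992) and GPD2 (0.991) for BACE2, GDF15 (0.996) and PACSIN2 (0.996) for CAPN3, and HTRA1 (0.998) and TTYH2 (0.998) for ST3GAL6.

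Other genes of the pathway were taken from lists of 71 non-members, of which 60 were tested. DCT, SLC45A2 and SLC24A5, a further pigment enzyme and 2 melanosome transporters, were not analysed here. Over all lists 11 genes were called higher and 14 lower with PMEL gain, 14 and 34 in A375M2 shFHL2, 20 and 30 in shNFYA, 12 and 32 in C32 shFHL2, and 20 and 27 in shFHL2 against shNFYA, by limma. Of all genes tested, 22.1% were called higher and 17.8% lower with PMEL gain, 41.1% and 44.2% in A375M2 shFHL2, 43.5% and 43.3% in shNFYA, 32.2% and 30.3% in C32 shFHL2 and 31.8% and 38.3% in shFHL2 against shNFYA. The counts of the lists below are to be read against these shares, and a count near its share is no result about the list. The lists were chosen with earlier results of these data known, so their calls and p-values are no independent support. The 11 became 7 without A375M2 PMEL replicate 2. The median differences of the lists together were 0.03, -0.36, -0.11, -0.24 and -0.08 log2.

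Of 8 lineage regulators tested, 3 were called higher and 0 lower with PMEL gain, 1 and 7 in A375M2 shFHL2, 1 and 6 in shNFYA and 0 and 7 in C32 shFHL2. MITF fell in 3 groups, by -4.18 log2 in A375M2 shFHL2, -5.28 in shNFYA and -0.76 in C32 shFHL2 (limma, adjusted p = 1.13e-20, 3.88e-22 and 4.19e-09). It was 1.10 log2 higher in shFHL2 than in shNFYA (limma, adjusted p = 4.94e-12), and its difference with PMEL gain was 0.13 log2 (limma, adjusted p = 0.0543). IRF4, a factor that regulates TYR, fell in the A375M2 hairpin groups (-3.89 and -3.85 log2). Its means there were under log2 4 (3.614 in shFHL2 and 3.655 in shNFYA), so the size of the fall is uncertain. SOX10 fell in C32 shFHL2 (-1.08 log2) and in A375M2 shFHL2 (-0.42), and rose by 0.11 with PMEL gain. In shNFYA its difference of -0.03 log2 was not called. Of 9 other known MITF targets tested, 4 fell and 3 rose in each A375M2 hairpin group. TBC1D16 (-4.18 and -4.48 log2) and the cathepsin CTSK (-3.15 and -6.82) fell in both, while MET rose in both (0.60 and 0.55). With PMEL gain 1 of these targets was called higher (CDK2, 0.61 log2) and 5 lower, among them CTSK (-1.36). In C32 shFHL2 1 was called higher and 5 lower.

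Of 12 genes of PMEL cleavage and sorting tested, 6 were called lower and 2 higher in A375M2 shFHL2, 4 lower and 5 higher in shNFYA, 6 lower and 3 higher in C32 shFHL2, and 4 lower and 2 higher with PMEL gain. NCSTN, a subunit of gamma-secretase, fell by 1.13 log2 in A375M2 shFHL2. APOE, which binds PMEL fragments on vesicles in the endosome, fell in A375M2 shFHL2 (-2.06 log2) and shNFYA (-3.18). In C32 its mean was 10.59 with GFP and 11.35 with the FHL2 hairpins. In the other direction, ADAM17 rose in A375M2 shFHL2 (0.45 log2) and shNFYA (0.53). PSENEN rose in shNFYA (0.59 log2) and in C32 shFHL2 (0.48). BACE1 fell by 0.66 log2 with PMEL gain (limma, adjusted p = 0.00499), and ADAM10 fell by 0.44 in C32 shFHL2.

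Of 4 other pigment enzymes and transporters tested, SLC7A11, the cystine transporter, rose in A375M2 shFHL2 (1.23 log2) and shNFYA (0.92) and fell by 3.59 in C32 shFHL2. CLCN7, a chloride channel of lysosomes, fell in all 3 (-0.94, -0.49 and -0.86 log2). Of 22 cargo delivery genes tested, 11 were called lower and 7 higher in A375M2 shFHL2, 10 and 10 in shNFYA, 8 and 6 in C32 shFHL2, and 2 and 4 with PMEL gain. LYST, which acts in the size of lysosome-related organelles, fell in the A375M2 hairpin groups (-3.35 and -4.18 log2). It also fell in C32 shFHL2 (-0.59) and rose by 0.46 with PMEL gain. BLOC1S2 (1.3 and 1.6 log2) and AP3S1 (1.2 and 1.0) rose in A375M2 shFHL2 and shNFYA. RAB38, a GTPase that carries TYR and TYRP1 to melanosomes, fell by 3.62 log2 in C32 shFHL2 (limma, adjusted p = 2.32e-17), from a mean of 11.10 to 7.48. In A375M2 it was lower than with GFP in both hairpin groups (-0.30 log2 in shFHL2 and -1.59 in shNFYA). Between these groups it was 1.30 log2 higher in shFHL2 than in shNFYA.

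Of 5 movement genes tested, 4 were called lower in each A375M2 hairpin group and 0 higher, and 3 were called lower and 1 higher in C32 shFHL2. MYO5A, the motor that holds melanosomes on actin, fell in A375M2 shFHL2 (-1.54 log2) and shNFYA (-3.23). MLPH, the linker between that motor and RAB27A, fell in A375M2 shFHL2 (-2.87 log2), shNFYA (-2.545), C32 shFHL2 (-1.90) and with PMEL gain (-1.46). RAB27A itself fell in A375M2 shFHL2, shNFYA and C32 shFHL2 (-0.55, -1.95 and -1.74 log2). MYRIP was the gene called higher in C32 shFHL2 (2.04 log2). All of these calls were made by limma at the same threshold, and those in the A375M2 hairpin groups cross the array sets.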

How the data were processed

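The deposited values are on a log2 scale, and GCRMA is the tool named per the submitters' processing notes, without a version. They cover 23416 probe sets with 0 missing values, and 0 columns were unmatched to samples. Of the probe sets, 20264 had 1 gene symbol in the platform annotation (995 had several, 2099 none or no listing, 58 were controls), and 20254 were named through Entrez IDs in a RefSeq table. A probe set needed log2 4 in 3 or more of the 18 arrays, the one of highest mean stood for a gene, and 10940 genes were tested.

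Group means of 17 arrays, C32 GFP replicate 3 left out, were modelled in limma 3.58.1 under R 4.3.3 (lmFit, then eBayes with its trend option). Benjamini-Hochberg adjustment ran over all genes within a comparison. The scripts were tested on simulated data. The members and the lists were chosen with earlier results of these data known. Members are therefore given no p-values, and their differences are descriptions. The pathway lists hold genes by their known roles, and their calls are no independent support. Named pathway genes are among the 3 with the smallest adjusted p per list and comparison, besides MITF. Genes like a member are the 2 with the highest correlation. Promoter windows came from RefSeq. The number of arrays limits precision: the median SE was 0.0712 log2 in A375M2 and 0.0796 in C32. Alternatives changed the filter, floor, centring, probe set, variance model, weights, threshold or arrays used. Plots used Python 3.11.15 and matplotlib 3.10.9.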

Additional observations from a re-analysis of the deposited data

Results flagged for a closer look

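Of the 60 tested pathway genes outside the set of 10, only 29 were searched here. They were those with the smallest adjusted p per list when FHL2 hairpin cells were compared with GFP cells in either line. For 8 of these 29, the FHL2 hairpin difference from GFP was called in opposite directions in C32 and A375M2. For these 8 genes limma's test of the difference between the lines was called too. The C32 minus A375M2 value was -4.83 log2 for SLC7A11 (SE 0.0619; -3.59 in C32 and 1.23 in A375M2), the cystine transporter, and -2.20 for the receptor MET (-1.60 and 0.60). It was -1.50 for AP3S1 (-0.30 and 1.20), a subunit of the AP-3 adaptor, -1.16 for HPS5 (-1.03 and 0.12), -0.94 for TFE3 (-0.52 and 0.42) and -0.72 for ADAM10 (-0.44 and 0.28). It was 1.18 for HGS (0.25 and -0.93) and 0.77 for TPCN2 (0.40 and -0.37), a channel that acts on melanosome pH. The A375M2 side of each value crosses the array sets. The 8 are not a count for all 60 genes, and no share over all genes is given beside them. Genes outside the 29 were not searched in full. Among them, RAB32 (0.42 log2 in C32 and -0.39 in A375M2) and AP3M1 (0.23 and -0.58) had opposite calls. APOE was called lower in A375M2 shFHL2 (-2.06 log2), while its C32 mean was 10.59 with GFP and 11.35 with the FHL2 hairpins.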

How the results depend on the processing

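The 70 differences of the 10 genes (10 genes in 7 contrasts) were recomputed under up to 29 alternatives each, 2030 values in all. Of these, 1993 kept their side of the threshold, and the called ones among them also kept their direction. A further 26 lost the call, 9 gained it and 2 called differences reversed. Uncalled differences that changed sign count among the 1993, such as TYR with PMEL gain (-0.08 log2, and 0.10 without both replicate 3 arrays). The reversals were TYR in the C32 minus A375M2 difference, at -0.51 log2 once every value under log2 4 was raised to 4, and CAPN3 in shFHL2 against shNFYA, at -0.19 log2 with the probe set of largest variance. Other pathway genes called higher with PMEL gain numbered 11, and 7 with the probe set of largest variance, 6 at an adjusted p under 0.01, and 7 to 15 with an array left out (7 without A375M2 PMEL replicate 2). Those called lower numbered 14, and 9 with the probe set of largest variance and 10 to 15 with an array left out; the cause was not tested. Same-numbered arrays did not deviate together in the same direction (0 of 40 pairs over r = 0.1), so the main fit used no pairing. The mirrored replicate 3 arrays of A375M2 GFP and PMEL deviated in opposite directions (r = -0.9987) and are not independent. With a replicate block the shFHL2 against shNFYA difference of TYR stayed 0.30 log2 and was called, and the pathway counts with PMEL gain were 10 and 13. TYR was also called there with all 18 arrays. Values under log2 4 have no reliable order, which limits every member except GPNMB and BACE2 in the groups named above.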
